A study of Oryctolagus cuniculus with 12 samples.

Results

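RL illumination of the rabbit cornea was set against control cornea, with 3 libraries in each group, to ask which transcripts differ after light exposure of the kind labelled RL. The comparison covered 13218 of 29076 listed genes, chosen because their FPKM (a level scaled for transcript length and library depth) was 1 or more in at least 3 of the 6 libraries. The whole series holds 12 cornea libraries, 3 each labelled RL, blue_light, GL and control. The rabbits were 6 months old and ate a normal diet, and a light exposure of 6 weeks is written on every library, including the controls. The sources used here do not say what RL and GL stand for, nor the wavelengths, the intensities or the light the controls lived under. No label ties a library to an animal, so each p-value measures only how far these samples spread, and that spread may be technical.

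The cornea is the clear front of the eye. A layered epithelium that makes the keratin pair KRT3 and KRT12 covers a collagen stroma tended by keratocytes, and a single layer of endothelial cells lines its inner face. Tissue size and stretch are read in many organs by the Hippo pathway, whose kinases hold back the coactivators YAP1 and WWTR1 (TAZ). In the nucleus these coactivators have no DNA-binding domain of their own and act mainly through the TEAD factors, TEAD1 to TEAD4 in mammals. Cholesterol, which every growing or renewing cell layer needs for membranes, is built in many steps from acetyl-CoA through HMG-CoA and squalene, under control of the SREBP transcription factors.

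RNA counts in the RL libraries totalled 45.9, 62.4 and 62.2 M (mega), against 44.4, 56.9 and 46.8 M in the controls. Low counts piled up in steps of about 3.75, so these totals stand for an estimated 11.8 to 16.6 M fragments per library. RL 1 and control 1 had 2486 and 2561 genes at counts of 1 to 20. The other 4 RL and control libraries had 1014 to 1300. All 3 blue_light libraries were like RL 1, at 2563, 2562 and 2389, whereas GL had 1262, 1461 and 767. RL 1, control 1 and blue_light are called the library set below, and the rest are the 7 libraries with fewer low-count genes. RL 2 and RL 3 thus differed from blue_light in this trait as well. The trait is given where a result moves with it. Of the tested genes, 11623 reached the minimum in all 6 libraries, 16 through the RL libraries alone and 40 through the controls alone. The genes nearest the minimum were LOC100349047 and LOC108176652 just inside, with a third-highest FPKM of 1.00065 and 1.00093, and LOC100350700 and LOC100353317 just outside, at 0.998974 and 0.99901. The tissue label fitted its markers. KRT12 was present at 20345, 26693 and 27723 CPM in RL, against 22062, 17923 and 14352 CPM in control, KRT3 at 4236, 8243 and 7851 CPM in RL, against 5623, 5645 and 4826 CPM in control, and the stromal proteoglycan gene LUM at 5632, 4336 and 4480.3 CPM in RL, against 4858, 3488 and 3574 CPM in control.

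Transcripts of RL corneas differed from controls in few genes that could be told from the spread between libraries. By edgeR's quasi-likelihood test with Benjamini-Hochberg adjustment, 2 of 13218 genes passed an adjusted p of 0.05, which is 0.0151% of genes tested. TEAD1, the DNA-binding partner of YAP1, fell in RL, and LOC100339782, an incomplete copy annotated as a histone methyltransferase, rose, which is 0.00757% of genes in each direction. At an unadjusted p below 0.05, 320 genes stood higher in RL (2.42%) and 291 stood lower (2.2%), 611 in all (4.62%). Libraries of both groups did not overlap in 1087 genes (8.22%), with RL above control in 507 (3.84%) and below in 580 (4.39%). DESeq2 called 35 genes (0.265%) on the same counts, 14 higher and 21 lower in RL, and both edgeR calls were among them. The fold change was above 0 in 7029 genes (53.2%), and the median over all genes was log2 0.02.

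**Figure D1:**
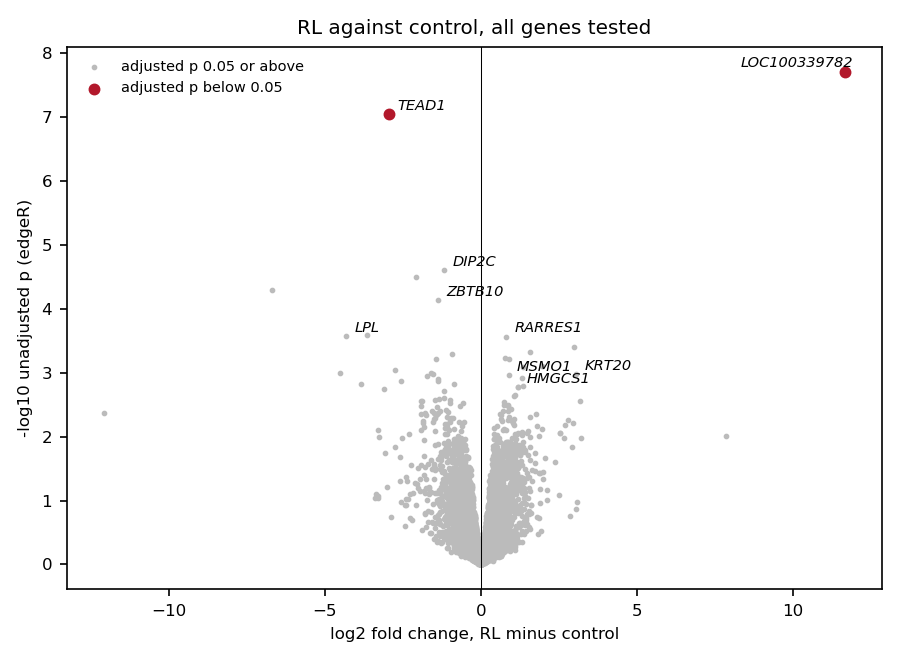
Each point is 1 of 13218 genes, with the log2 fold change of RL minus control on the x axis and −log10 of the unadjusted edgeR p on the y axis. The 2 red points passed an adjusted p of 0.05, TEAD1 on the left and LOC100339782 on the right; the position of LOC100339782 depends on how a control level of 0 is handled in the fit.

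TEAD1 was the gene called lower in RL. Its level was 41.2, 24.7 and 18.3 CPM in the RL libraries, against 234, 209.6 and 196 CPM in the controls, in CPM (counts scaled by library size and composition). The highest RL library lay far below the lowest control, and the groups did not overlap. The mean was 28.1 ± 11.8 CPM in RL and 213 ± 19.1 CPM in control (SD, n = 3 each), a 7.61-fold lower level (log2 −2.93 ± 0.26 SE, edgeR adjusted p = 0.000606). Per length, the level was 2.96 ± 1.31 FPKM in RL and 23.5 ± 2.2 FPKM in control. Other illuminated corneas did not share the low level, with 206, 262 and 204 CPM in blue_light and 231, 199 and 248 CPM in GL. RL lay log2 −3.0 from the mean of those groups (SE 0.25, edgeR adjusted p = 0.000481), and each RL library lay below the 9 other libraries of the series. Across all tested genes this held for 65, or 0.492%. The call was kept in 21 of 21 alternative fits, with log2 values between −3.31 and −2.67. With only RL 2, RL 3, control 2 and control 3 in the comparison it was log2 −3.24 (adjusted p = 0.00143).

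TEAD1 lies on the plus strand of its rabbit chromosome sequence, at positions 154444263 to 154726630 in the numbering of the deposited table. Its neighbours were looked at for a shift of the whole region. The nearest upstream gene tested was PARVA, which codes for the adhesion protein alpha-parvin, at 254, 419.7 and 329 CPM in RL, against 269.8, 459 and 369.7 CPM in control. MICAL2 and DKK3 further upstream had log2 −0.03 and log2 −0.34, with overlapping groups in both. RASSF10, the nearest tested gene downstream, stood at 9.29, 16.7 and 10.3 CPM in RL, against 4.08, 6.38 and 11.1 CPM in control, also with overlap. ARNTL, the clock gene also named BMAL1, stood higher at 49.6, 44.1 and 40.1 CPM in RL, against 36.8, 23.7 and 25.2 CPM in control, without overlap (log2 0.64, unadjusted p = 0.00523). So the low level at this locus was measured for TEAD1 and not for the tested genes on either side. LOC100349725 lies inside the TEAD1 span on the same strand and was below the expression minimum, at 0.792 ± 0.783 CPM in RL and 0.960 ± 0.484 CPM in control.

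**Figure D2:**
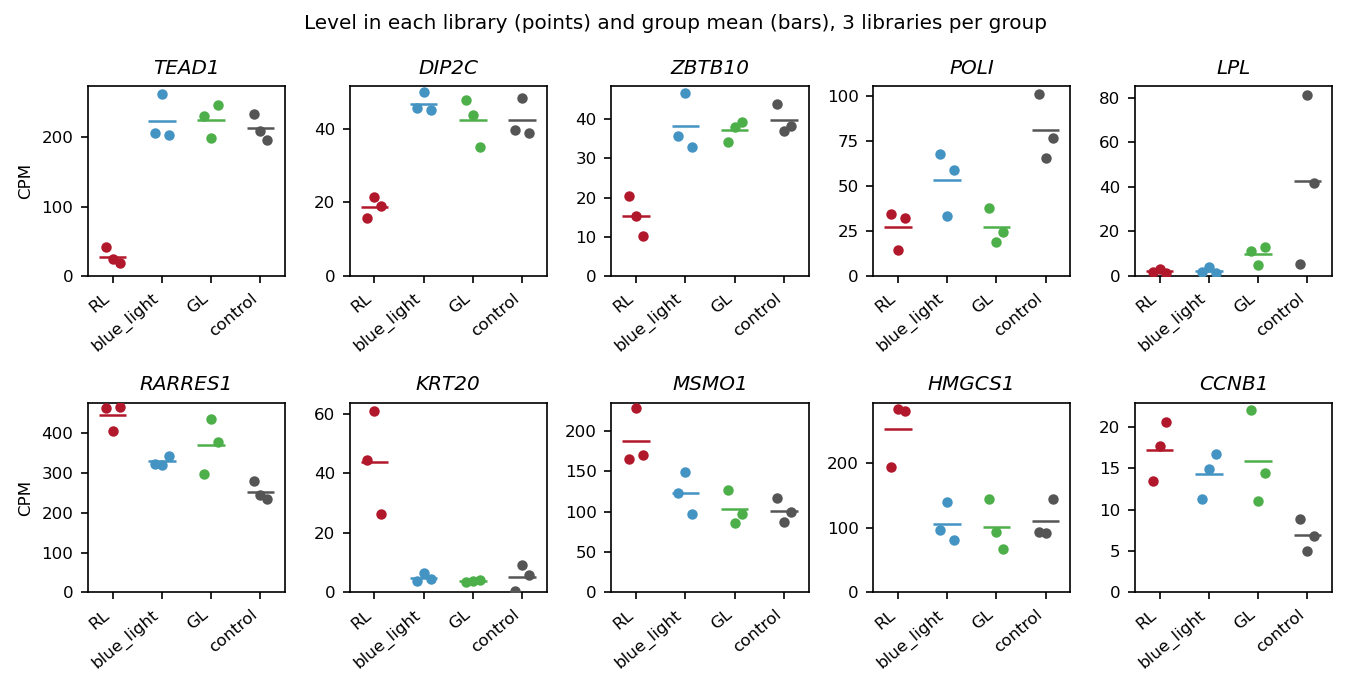
Levels in CPM (y axis, from 0) of 10 genes in the RL, blue_light, GL and control libraries, with a point for each library and a bar for the mean of 3. TEAD1, DIP2C and ZBTB10 were lower in each RL library than in the 9 others, whereas POLI and LPL in RL overlapped other illuminated groups; KRT20, MSMO1 and HMGCS1 were highest in the RL libraries.

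No other gene of the Hippo pathway passed the adjusted test. Among the other factors of the family, TEAD2 had 28.9, 53.5 and 36.6 CPM in RL, against 35.8, 41 and 33.4 CPM in control, TEAD3 had 53.4, 70.1 and 70.9 CPM in RL, against 58.1, 70.3 and 81.2 CPM in control, and TEAD4 had 6.5, 8.39 and 4.3 CPM in RL, against 4.98, 4.47 and 4.63 CPM in control. All 3 overlapped between groups, with unadjusted p of 0.681, 0.568 and 0.252. In control corneas TEAD1, TEAD2 and TEAD3 were of like abundance per length, at 23.5 ± 2.2, 19.7 ± 1.71 and 26.2 ± 4.44 FPKM, whereas in RL corneas TEAD1 was at 2.96 ± 1.31 FPKM beside 20.3 ± 6.05 FPKM of TEAD2 and 23.1 ± 3.13 FPKM of TEAD3.

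The coactivator YAP1 was at 357, 209 and 262 CPM in RL, against 287, 268 and 312 CPM in control, with overlap. Its relative WWTR1 stood higher at 142, 129.9 and 133 CPM in RL, against 119.9, 96.2 and 96.8 CPM in control, without overlap (log2 0.37 ± 0.15 SE, unadjusted p = 0.0271, adjusted p = 0.998). The vestigial-like cofactors, which compete with YAP1 for TEAD binding, gave log2 −0.18 for VGLL1, log2 0.39 for VGLL3 and log2 −0.03 for VGLL4, with overlap in all 3, and VGLL2 was listed at 0 in all 12 libraries. Of 9 family members and cofactors tested, 1 fell and none rose by the adjusted test. Among 21 Hippo kinases, scaffolds and regulators, 11 stood higher and 10 lower, none reached an unadjusted p below 0.05, and the median was log2 0.01.

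Genes known as targets of YAP1 and TEAD factors showed no common direction. Of 18 tested, 10 stood higher and 8 lower in RL, with a median of log2 0.03 beside log2 0.02 over all genes. CYR61, a secreted matrix protein and one of the standard readouts, was at 50.2, 156 and 173 CPM in the RL libraries, against 63.4, 67.5 and 62.3 CPM in the controls. RL 2 and RL 3 were high and RL 1 lay below every control (log2 0.97, unadjusted p = 0.0291). CTGF, another standard readout, was at 136, 460.5 and 270.4 CPM in RL, against 179, 242 and 208 CPM in control, with the same library low and the same pair high. ASAP1, which codes for a regulator of ARF GTPases, stood lower at 48.8, 54.5 and 58.8 CPM in RL, against 70.8, 113 and 107 CPM in control, without overlap (log2 −0.84, unadjusted p = 0.0129). The angiomotin family gene AMOTL2 (log2 0.22) and the receptor kinase gene AXL (log2 0.03) overlapped between groups. Of the RL and control libraries, ANKRD1 had counts only in RL 2, at 0.321 CPM, and it was not tested.

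The only call in the upward direction was LOC100339782. Its description is a low-quality, partial sequence of a histone-lysine methyltransferase gene. It was at 9.88, 8.34 and 4.36 CPM in the RL libraries and at 0 in all 3 controls, and therefore reached the expression minimum through RL alone, so its place among the genes tested follows in part from the filter. With no filter on low values it was called as well (adjusted p = 2.78e-05). Set against a floor of 3 fragments per library (0.247 CPM), the RL mean of 7.53 ± 2.84 CPM (SD, n = 3) was at least 30.5-fold higher (edgeR adjusted p = 0.000259). Blue_light and GL libraries carried it as well, at 10.4, 10.8 and 7.43 and 6.26, 9.93 and 6.9 CPM, so the controls were the group at 0, and RL overlapped the other illuminated libraries (log2 −0.19 ± 0.32 SE). KMT2A, the gene its description names, was at 167, 137 and 137 CPM in RL, against 156, 159 and 187 CPM in control, with overlap. How reads were divided between the partial entry and KMT2A was not tested, and the level is uncertain to that extent. The call was lost in 1 of 20 alternative fits, limma with a pseudocount of 1 (adjusted p = 0.119).

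Other entries with a LOC identifier, named after their values were seen, also separated RL from control, and none of the following passed the adjusted test. LOC100338525, annotated as glutathione peroxidase 1, was at 48.5, 65.3 and 72.3 CPM in the RL libraries, against 8.49, 8.51 and 6.59 CPM in the controls, without overlap (log2 2.98, adjusted p = 0.53), while GPX1 itself was at 229, 304 and 339.7 CPM in RL, against 293, 337 and 312 CPM in control. This entry was at 5.97, 7.96 and 4.75 CPM in blue_light, close to the controls, and at 60.2, 6.14 and 65.9 CPM in GL, high in GL 1 and GL 3 and low in GL 2. LOC100344261, similar to adenosylhomocysteinase of the methylation cycle, was at 5.06, 7.34 and 9.99 CPM in the RL libraries, against 25, 43.7 and 25.7 CPM in the controls (log2 −2.07, adjusted p = 0.104). It was low in all illuminated libraries, at 6.14, 5.97 and 4.65 CPM in blue_light and 7.19, 4.58 and 6.88 CPM in GL. AHCY, the gene with that enzyme's symbol, was at 501, 821 and 719 CPM in RL, against 502, 539 and 479 CPM in control. LOC100346910, annotated as CYP26A1, the enzyme that clears retinoic acid, was at 83.2, 111 and 100.2 CPM in RL, against 48.1, 32.2 and 19.3 CPM in control (log2 1.57, adjusted p = 0.546). This level was not particular to RL, with 137, 79.9 and 157 CPM in GL and 46.9, 77.2 and 67.6 CPM in blue_light. RL lay log2 0.14 from the mean of those groups.

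Below the threshold, 12 named genes with the smallest p and no overlap were taken in each direction. Of these 24 genes, 17 were called by DESeq2 (35 of all genes, 0.265%) and 15 by limma with array weights (46 of all genes). In 11, all RL libraries lay outside the range of the 9 others, beside 52 of all genes above (0.393%) and 65 below (0.492%). The 24 were picked by p and separation in these same libraries, so these counts add no independent support. Apart from TEAD1 none of the 24 passed the edgeR test, and the smallest adjusted p among the rest was 0.104.

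On the lower side, DIP2C, a member of the disco-interacting family, was at 15.8, 21.3 and 19.2 CPM in the RL libraries, against 39.7, 48.3 and 38.9 CPM in the controls. All RL libraries lay below all controls and below blue_light and GL (log2 −1.17 ± 0.18 SE, adjusted p = 0.104). ZBTB10, a zinc finger protein with a BTB domain, was at 20.3, 15.2 and 10.3 CPM in RL, against 43.9, 36.9 and 38.4 CPM in control (log2 −1.38 ± 0.24 SE, adjusted p = 0.161), and it too lay under all 9 other libraries. CDK5RAP1, which modifies mitochondrial tRNAs, was at 8.39, 8.91 and 8.1 CPM in RL, against 14.6, 15.4 and 17.9 CPM in control. SLC34A2, a sodium-phosphate cotransporter, was at 26.3, 7.41 and 20.2 CPM in RL, against 32.9, 55.3 and 47.3 CPM in control, and APOLD1, an early response gene of vascular endothelium, at 2.56, 2.37 and 2.1 CPM in RL, against 5.73, 6.57 and 6.9 CPM in control. ST8SIA5, a sialyltransferase of ganglioside synthesis, was at 7.34, 5.06 and 9.01 CPM in RL, against 12, 16.2 and 20.5 CPM in control. These 4 also had RL below the 9 others.

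Other lower genes were not set apart from the rest of the illuminated libraries. POLI, a polymerase that copies past DNA lesions, was at 34.5, 14.5 and 32.1 CPM in RL, against 101, 65.9 and 76.8 CPM in control, and GL libraries held 38, 18.9 and 24.6 CPM. LPL, the lipase that releases fatty acids from lipoproteins, was at 1.77, 3.33 and 1.3 CPM in the RL libraries, against 5.51, 81.3 and 41.6 CPM in the controls. Control 2 and control 3 were high, control 1 was close to RL, and blue_light held 1.86, 4.22 and 1.16 CPM. LPL reached the expression minimum through the controls alone, so its place on the list follows in part from the filter. RPL39, a ribosomal protein gene with many copies that can share reads, was at 143, 90.8 and 64.3 CPM in RL, against 169.9, 299 and 294 CPM in control and was lower still in GL, at 62.5, 57.5 and 48.7 CPM. PAQR5, a membrane progestin receptor, had log2 −2.56, and RIC3, a chaperone of acetylcholine receptors, log2 −0.86.

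On the higher side, KRT20, a keratin best known from intestinal and urothelial lining, was at 44.5, 60.8 and 26.2 CPM in the RL libraries, against 0.461, 9.21 and 6.01 CPM in the controls. Every RL library exceeded the 9 others, whose highest value was 9.21 CPM in control 2 (log2 3.06 ± 0.72 SE, adjusted p = 0.611). RARRES1, which retinoic acid induces, was at 461, 406 and 465 CPM in RL, against 279, 244 and 234 CPM in control (log2 0.81 ± 0.16 SE, adjusted p = 0.402), though GL reached 297, 435 and 377 CPM. DPT, which codes for the matrix protein dermatopontin, was at 158, 145 and 119 CPM in RL, against 59.1, 62.6 and 62.6 CPM in control, above the 9 others. PNPLA6, a phospholipase, was at 65.3, 62.2 and 68.5 CPM in RL, against 31.7, 45.5 and 37.5 CPM in control, with GL at 73.9, 60.9 and 80.7 CPM. The entry named SVBP, whose description is that of the ubiquitin ligase TRIM25, was at 60.1, 80.4 and 78.8 CPM in RL, against 38.6, 44.5 and 33.3 CPM in control.

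Genes of cell division were among the higher ones. CCNB1, the cyclin that starts mitosis, was at 13.4, 17.7 and 20.6 CPM in the RL libraries, against 8.93, 5.02 and 6.82 CPM in the controls (log2 1.32 ± 0.32 SE, adjusted p = 0.629). UBE2C, which helps degrade mitotic cyclins, was at 12.2, 12.3 and 22.5 CPM in RL, against 8.1, 5.23 and 5.06 CPM in control, and HAUS2, a subunit of the spindle complex augmin, at 7.84, 8.95 and 12.3 CPM in RL, against 5.51, 3.63 and 4.48 CPM in control. All 3 separated RL from control, but blue_light and GL reached into the RL range for each of them, with 11.3, 15 and 16.7 and 22.1, 11 and 14.4 CPM of CCNB1. BATF2 and BAIAP2L1 complete the 12, with log2 1.07 and log2 0.74.

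Enzymes of cholesterol synthesis stood higher in RL along the length of the pathway, although none passed the adjusted test. All 16 enzymes measured, of 20 listed, had a fold change above 0, with a median of log2 0.56, where 53.2% of all genes were above 0 with a median of log2 0.02. An unadjusted p below 0.05 in the higher direction was reached by 6 of 16, beside 2.42% of all genes, and 8 of 16 separated RL above control, beside 3.84%. The summed level of the 16 was 1258, 1920.1 and 1697 CPM in RL and 985, 1050.4 and 1136 CPM in control, without overlap, and RL 1 was the nearest to the controls.

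HMGCS1, which makes HMG-CoA, was at 195, 283 and 281 CPM in the RL libraries, against 93.9, 91.8 and 144 CPM in the controls. RL lay above all controls and above blue_light (97.1, 139.8 and 81.6 CPM) and GL (144, 93 and 67.2 CPM), with log2 1.2 ± 0.30 SE against control and log2 1.29 ± 0.25 SE against the other light groups (adjusted p = 0.678 and 0.155). SQLE, which oxidises squalene before the sterol ring is closed, was at 92.8, 125 and 119 CPM in RL, against 62.6, 74.9 and 91.7 CPM in control (log2 0.56 ± 0.19 SE, unadjusted p = 0.011).

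Later enzymes followed the same direction. MSMO1, which removes methyl groups from the sterol ring, was at 165, 228 and 171 CPM in the RL libraries, against 117, 86.9 and 99.9 CPM in the controls (log2 0.89 ± 0.21 SE, unadjusted p = 0.00109), and its partner NSDHL was at 25.9, 34.4 and 24.7 CPM in RL, against 16.6, 19.3 and 11.5 CPM in control (log2 0.85 ± 0.30 SE, unadjusted p = 0.0156). MSMO1, HMGCS1, NSDHL and SC5D were higher in each RL library than in the 9 others, which 52 of all genes were (0.393%). FDPS, which joins isoprene units, was at 56.4, 78.4 and 68.3 CPM in RL, against 42.5, 37.6 and 52 CPM in control. ACAT2, FDFT1 and TM7SF2 overlapped between groups, with RL 1 at or near the controls.

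**Figure D3:**
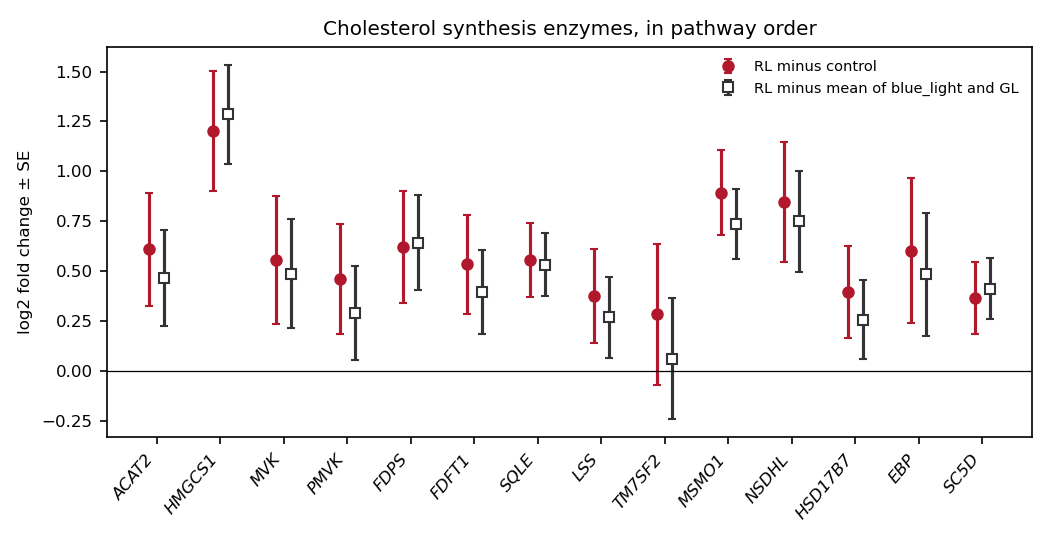
Log2 fold change ± SE (y axis) of 14 enzymes of cholesterol synthesis in pathway order from left to right, for RL minus control (filled circles) and RL minus the mean of blue_light and GL (open squares). All 28 values lie above 0, and HMGCS1 is the highest in both comparisons.

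Against the other illuminated groups, again all 16 had a fold change above 0, with a median of log2 0.48. An unadjusted p below 0.05 in the higher direction was reached by 7 of 16, beside 2.74% of all genes. Over the alternative fits this median lay between log2 0.22 (without RL 2, 14 of 16 above 0) and log2 0.67 (without RL 1, 16 of 16). By the list mean of log2(CPM + 1), RL 1 (5.82) lay below GL 1 (6.12) and GL 3 (5.90), so RL and GL overlapped. The median against control lay between log2 0.32 and 0.76 over 21 alternative fits. The lowest value came without RL 2, and a comparison without RL 1 and control 1 gave log2 0.70 with 16 of 16 above 0.

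Upstream of the enzymes the picture was mixed. Of 16 genes of the SREBP machinery and sterol handling, 8 stood higher and 8 lower, with a median of log2 0.04. STARD4, a carrier of cholesterol between membranes, was at 27.2, 53 and 35.7 CPM in RL, against 19.1, 20.9 and 22.2 CPM in control (log2 0.9 ± 0.31 SE, unadjusted p = 0.0135), without overlap. INSIG1, which retains SREBP in the endoplasmic reticulum, was at 123, 161 and 222 CPM in RL, against 128, 121 and 145 CPM in control, and RL 1 lay among the controls. The regulators SREBF2 (log2 0.22) and SREBF1 (log2 0.29) overlapped. The efflux pumps ABCA1 (log2 −0.09) and ABCG1 (log2 −0.35) overlapped as well.

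Fatty acid synthesis genes leaned the same way, with 12 of 14 above 0 (53.2% of all genes), a median of log2 0.43, and 5 at an unadjusted p below 0.05 in the higher direction (2.42% of all genes). The median was log2 0.22 without RL 2, and also log2 0.22 by limma with array weights. ACSS2, which makes acetyl-CoA from acetate, was at 37.7, 59.7 and 45.1 CPM in RL, against 23.5, 27.1 and 28 CPM in control, without overlap (log2 0.86 ± 0.26 SE, unadjusted p = 0.00559). ELOVL1, which lengthens fatty acids, was at 58.4, 68.5 and 51.5 CPM in RL, against 48.4, 38.7 and 34.6 CPM in control, and ME1, a source of NADPH, at 25.7, 22.3 and 22.3 CPM in RL, against 19.7, 7.01 and 13.9 CPM in control, both without overlap. THRSP, which codes for a regulator of lipogenesis, was at 83.5, 42.6 and 58.7 CPM in RL, against 47.3, 20.7 and 13.3 CPM in control, where RL 2 overlapped control 1. ACACA, the committed step, was at 104, 167 and 119 CPM in RL, against 80.5, 96.7 and 107 CPM in control. FADS1 and ACACB had values below 0, log2 −0.03 and log2 −0.12.

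Lens transcripts, which the cornea should hold little of, stood lower in the RL libraries than in the controls, although none passed the adjusted test. All 15 lens genes tested, of 22 listed, had a fold change below 0, with a median of log2 −1.53, and 13 of 15 lay below every control, beside 4.39% of all genes. By unadjusted p below 0.05 only 2 of 15 stood lower (2.2% of all genes), since libraries of one group differed widely. The summed level, over all 18 lens genes found in the data and not only those tested, was 683.5, 3506 and 3031 CPM in RL. In control it was 6098, 9381 and 5793 CPM. RL 1 was the lowest by a wide margin. In bulk tissue, fewer cells of a type and less RNA per cell cannot be told apart.

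CRYAA, a crystallin of the lens, was at 207, 1253 and 1064 CPM in the RL libraries, against 2204, 3269 and 2143 CPM in the controls (log2 −1.59 ± 0.81 SE, unadjusted p = 0.0736). CRYBA1 was at 18.3, 141 and 114 CPM in RL, against 525, 611 and 288 CPM in control (log2 −2.39 ± 1.06 SE, unadjusted p = 0.0427), and LENEP, a small protein of lens epithelium, at 2.1, 4.75 and 4.4 CPM in RL, against 7.37, 14.3 and 9.85 CPM in control (log2 −1.49 ± 0.44 SE, unadjusted p = 0.00529). The membrane genes MIP and LIM2 and the filament gene BFSP1 were also below every control, at 2.21, 19.2 and 11.7, 0.153, 4.38 and 2.07 and 3.81, 55.6 and 42.8 CPM in RL, against 20.8, 38.2 and 20.9, 4.54, 7.17 and 9.87 and 55.7, 138 and 77.2 CPM in control. ALDOC, an aldolase of the glycolysis list, followed the same order of libraries at 7.07, 44.9 and 37 CPM in RL, against 62.9, 145 and 75.1 CPM in control. Without RL 1 the median of the lens list was log2 −1.13. No lens gene had all RL libraries below the 9 others. The list mean of log2(CPM + 1) was 3.61, 6.27 and 6.03 in RL and 6.81, 7.61 and 6.96 in control. It was 8.35, 5.38 and 5.79 in blue_light and 4.17, 5.91 and 6.11 in GL. Apart from blue_light 1, the other illuminated libraries thus also lay below every control by this mean, and the low level was not particular to RL. The part of lens tissue in other results was not tested.

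**Figure D4:**
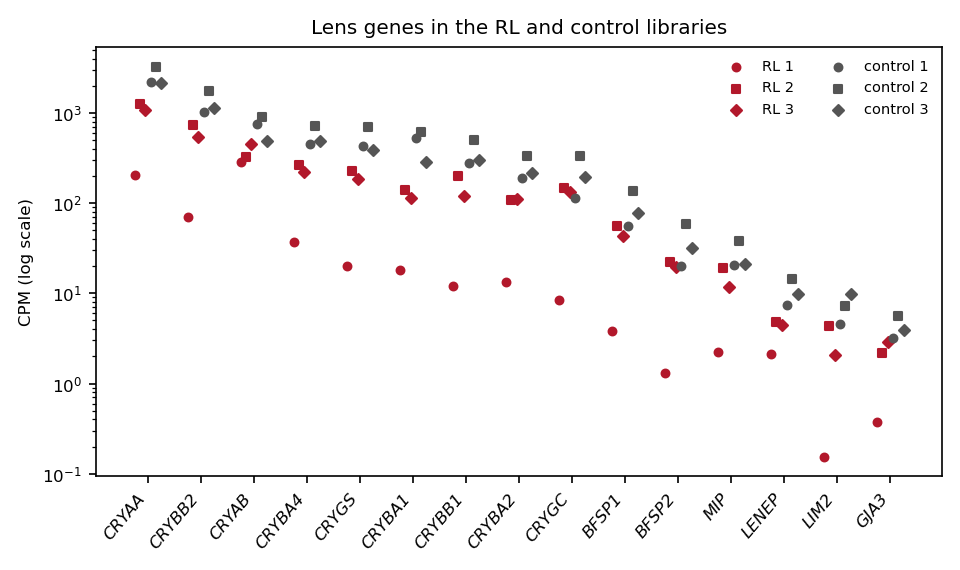
Level in CPM (log-scale y axis) of 15 lens genes (x axis) in 3 RL libraries (red) and 3 control libraries (grey), with a marker shape for each replicate number. RL 1 is the lowest point for every gene, and RL 2 and RL 3 lie below all controls for most genes.

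Among markers of the cornea's own layers, those of the epithelium leaned higher in RL. Of 22 epithelial genes, 20 had a fold change above 0 (53.2% of all genes), with a median of log2 0.32. An unadjusted p below 0.05 was reached by 3 in the higher direction (2.42% of all genes) and by none in the lower (2.2%). The summed level was 47399, 60911 and 60605 CPM in RL and 49586, 43619 and 39356 CPM in control, so RL 1 lay within the control range and RL 2 and RL 3 above it. KRT5, the keratin of basal cells, was at 1492, 2627 and 3371 CPM in RL, against 1502, 1311 and 1410.5 CPM in control (log2 0.83 ± 0.31 SE, unadjusted p = 0.0201), with RL 1 inside the control range. KRT12 had log2 0.46 ± 0.21 SE (unadjusted p = 0.0453) and KRT3 log2 0.34 ± 0.25 SE, both with overlap. IVL, involucrin of the cornified envelope, was at 7.21, 45.4 and 16.5 CPM in RL, against 1.6, 5.34 and 2.21 CPM in control, without overlap (log2 2.91 ± 1.02 SE, unadjusted p = 0.0144). PAX6, the eye development factor, overlapped at log2 −0.11. Epithelial sums were highest in RL 2 and RL 3, as were the sums of the cholesterol enzymes, and the part of epithelium in that result was not tested.

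Stromal genes had 16 of 22 above 0 (53.2% of all genes) and a median of log2 0.17, which turned to log2 −0.04 without RL 2. KERA, keratocan of the keratocytes, was at 5840.1, 4277 and 3857 CPM in RL, against 6589.9, 3805 and 3978 CPM in control, and COL1A1 at 4951, 18398 and 8493 CPM in RL, against 4532, 9033 and 9537 CPM in control, where RL 2 alone was high. ASPN, which codes for the small matrix protein asporin, was the exception at 2.56, 2.3 and 1.85 CPM in RL, against 6.23, 5.78 and 4.63 CPM in control, below the 9 others (log2 −1.31 ± 0.37 SE, unadjusted p = 0.00392). Endothelial markers had 7 of 13 above 0 with a median of log2 0.06. Conjunctival and goblet cell markers had 4 of 6 above 0 (log2 0.12, and log2 −0.05 without RL 3) and limbal markers 5 of 7 (log2 0.13, and log2 −0.05 without control 2). Immune markers were scarce, with 6 of 22 listed genes tested, 5 of them above 0 (log2 0.56). Their summed level, over all 17 found in the data and not only those tested, was low. It was 37.9, 72.4 and 46.8 CPM in RL and 40.3, 33.9 and 45.8 CPM in control. Vessel markers had 6 of 7 above 0 (log2 0.4, but log2 0.14 without RL 2 and log2 0.05 by limma with array weights), and of these KDR, a VEGF receptor, was at 112, 119.9 and 99.2 CPM in RL, against 70.3, 69 and 78.8 CPM in control, without overlap (log2 0.6, unadjusted p = 0.0124). Retinal markers had 1 of 5 genes tested above 0 (log2 −0.09). Pigment cell markers had 4 of 5 above 0 (log2 0.29, but log2 −0.08 by limma with array weights), nerve markers 4 of 8 (log2 0.02), muscle markers 0 of 3 (log2 −0.34, but log2 0.12 without RL 1) and adipocyte markers 0 of 2 (log2 −2.19), of which 1 is LPL.

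**Figure D5:**
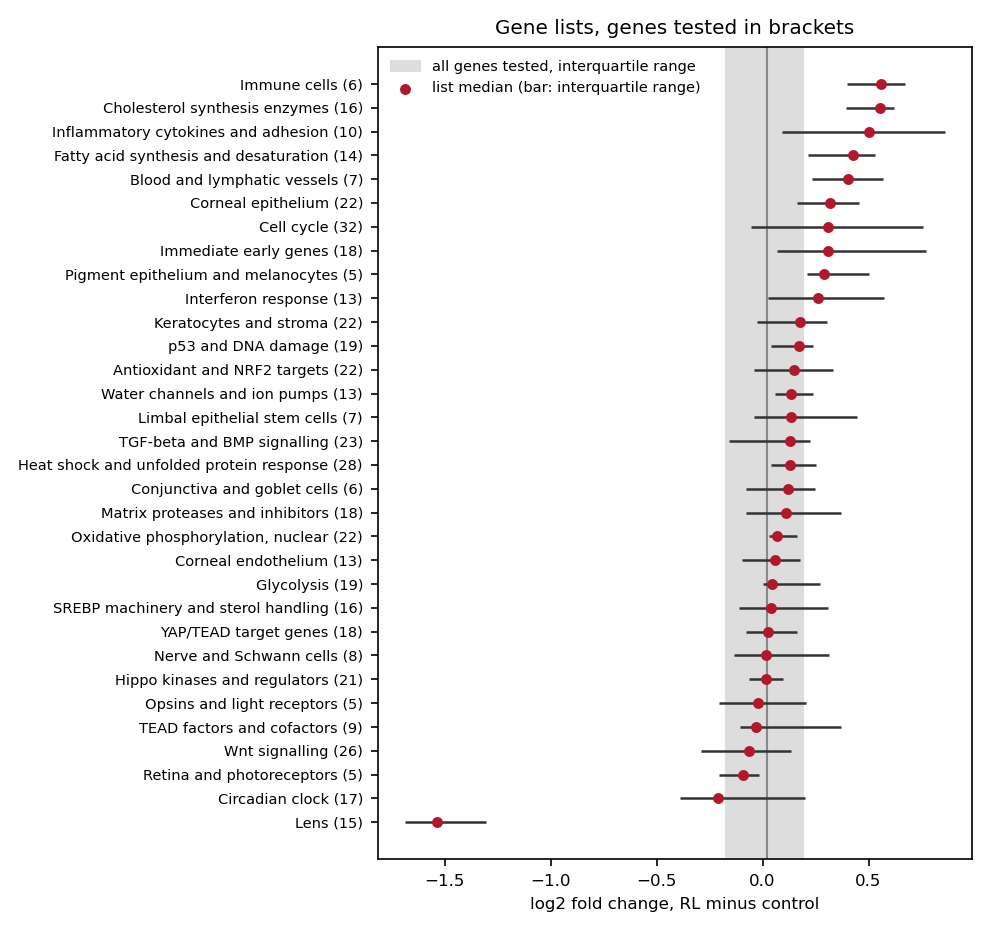
Median log2 fold change of RL minus control (x axis) for each gene list with 5 or more genes tested (red points), with the interquartile range of its genes as a bar; the grey band is the interquartile range of all 13218 genes. Lens genes have the lowest median, log2 −1.53, and cholesterol synthesis enzymes lie near the top at log2 0.56.

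Of the cell cycle list, 22 of 32 genes had a fold change above 0 (53.2% of all genes), with a median of log2 0.31 and 5 at an unadjusted p below 0.05 in the higher direction (2.42% of all genes). CDK1, the mitotic kinase, was at 17.7, 17.1 and 24.4 CPM in RL, against 16.3, 9.86 and 8.9 CPM in control, and HMMR, a spindle protein, at 11.4, 3.94 and 6.03 CPM in RL, against 3.64, 3.63 and 1.28 CPM in control, both without overlap. Separation went both ways in this list, with RL above every control in 3 of 32 (3.84% of all genes) and below in 2 (4.39%). AURKA (log2 1.08) and AURKB (log2 1.13) are the kinases of the centrosome and the chromosome passenger complex, and their groups overlapped. In RL minus the mean of blue_light and GL, 21 of 32 were above 0 with a median of log2 0.07, none reached an unadjusted p below 0.05 in the higher direction (2.74% of all genes) and 2 did in the lower (2.28%). Without control 1 the median against control was log2 0.83, and without control 2 it was log2 0.08.

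Among light-related genes, OPN3, a non-visual opsin, was at 52.7, 94.8 and 53.9 CPM in the RL libraries, against 27.9, 51.2 and 40.4 CPM in the controls, without overlap (log2 0.75 ± 0.32 SE, unadjusted p = 0.035), with GL at 108, 50.3 and 84.2 CPM. Opsins and cryptochromes together had 2 of 5 above 0 (log2 −0.02). Of 17 circadian clock genes, 6 were above 0 and 11 below, with a median of log2 −0.21. In RL minus the mean of blue_light and GL, 9 of 17 were above 0 with a median of log2 0.02. The lower median was thus not seen against the other illuminated groups. Against control, ARNTL stood higher, as given above. NPAS2, which pairs with it, was at 49.7, 58.5 and 61.6 CPM in RL, against 43.8, 43.7 and 48.3 CPM in control, without overlap. HLF, a clock output factor, was at 242, 231 and 238 CPM in RL, against 279.5, 329 and 323 CPM in control (log2 −0.39, unadjusted p = 0.0295), and TEF, of the same family, at 102, 169 and 129.8 CPM in RL, against 167, 231 and 228 CPM in control (log2 −0.64, unadjusted p = 0.0153). PER2, a repressor of the clock, was at 14.5, 23.5 and 20.4 CPM in RL, against 23.1, 31.5 and 45 CPM in control.

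Immediate early genes had 14 of 18 above 0 with a median of log2 0.31, which rested on RL 3. NR4A1 was at 13.6, 10.1 and 75.6 CPM in the RL libraries, against 13.3, 11.8 and 13 CPM in the controls, NR4A2 at 49.4, 57.6 and 168 CPM in RL, against 52.1, 47 and 50.3 CPM in control and EGR3 at 1.53, 2.74 and 39.1 CPM in RL, against 1.71, 8.77 and 4.17 CPM in control, so RL 3 was high in each and RL 1 and RL 2 were close to the controls or below them. Without RL 3 the median was log2 −0.17, with 5 of 18 above 0. In RL minus the mean of blue_light and GL the median was log2 1.06, with 15 of 18 above 0 and 9 at an unadjusted p below 0.05 in the higher direction, beside 2.74% of all genes, and NR4A1 was at 6.16, 12.4 and 7.68 CPM in blue_light and 4.99, 18.3 and 6.88 CPM in GL. That comparison also moved with RL 3, and without it the median was log2 0.23, with 2 of 18 at an unadjusted p below 0.05 in the higher direction.

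Stress and defence lists held scattered differences. Antioxidant genes had 16 of 22 above 0 (log2 0.15) and heat shock and unfolded protein genes 22 of 28 (log2 0.13). TXN, thioredoxin, was at 88.1, 146 and 195 CPM in RL, against 87, 81.9 and 91.2 CPM in control (log2 0.72, unadjusted p = 0.00786), and GCLC, which makes glutathione's precursor, at 81.4, 73.2 and 105 CPM in RL, against 72.5, 41.3 and 65.5 CPM in control, without overlap. HSPA4, a heat shock protein of the HSP110 family, was at 194, 198 and 191 CPM in RL, against 166, 139.9 and 153 CPM in control, without overlap, and DDIT3 (CHOP), a marker of endoplasmic reticulum stress, was at 30.03, 22.4 and 27.8 CPM in RL, against 29.9, 35.8 and 44 CPM in control. The p53 list had 16 of 19 above 0 with a median of log2 0.17, and PHLDA3, with the smallest p among them, had log2 0.52 (unadjusted p = 0.0422). Of inflammatory genes 8 of 10 were above 0 with a median of log2 0.50, which was log2 0.01 without RL 3, PTGS2 (cyclooxygenase) being at 26.4, 42.7 and 54.8 CPM in RL, against 16.4, 20.9 and 26.8 CPM in control, and none reached an unadjusted p below 0.05. Interferon response genes had 10 of 13 above 0 (log2 0.26).

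Energy metabolism genes had small differences, with 15 of 19 glycolysis genes (median log2 0.04) and 20 of 22 nuclear genes of oxidative phosphorylation (log2 0.07) above 0, beside 53.2% of all genes. Without RL 3 the glycolysis median was log2 −0.05, and by limma with a pseudocount of 1 the oxidative phosphorylation list had 12 of 22 above 0. SDHC, a subunit of succinate dehydrogenase, was at 76.1, 66.8 and 74.3 CPM in RL, against 58.7, 62.7 and 53.4 CPM in control, and each RL library exceeded the 9 others (log2 0.31, unadjusted p = 0.044). Water channels and ion pumps had 11 of 13 above 0 (log2 0.14), and AQP3, the water and glycerol channel of epithelium, was at 385, 776 and 612 CPM in RL, against 331, 362 and 412 CPM in control (log2 0.68, unadjusted p = 0.0189). Matrix protease genes had 12 of 18 above 0 (log2 0.11), TGF-beta and BMP genes 15 of 23 (log2 0.13) and Wnt genes 10 of 26 (log2 −0.06), with no gene of these 3 lists at an unadjusted p below 0.05. TGFBI, a matrix protein abundant in the corneal stroma, was below every control at 1858, 1778 and 2025 CPM in RL, against 2673, 2189.5 and 2114 CPM in control (log2 −0.3, unadjusted p = 0.155). Over all 34 lists, TEAD1 was the single member called.

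Set directly against the other illuminated corneas, RL differed in 6 genes by the adjusted edgeR test (0.0454%) from the mean of blue_light and GL, a comparison that uses no control level, and 664 reached an unadjusted p below 0.05 (5.02%), 362 of them higher in RL (2.74%) and 302 lower (2.28%). TEAD1 and DIP2C fell in RL, DIP2C by log2 −1.25 ± 0.16 SE (adjusted p = 0.0224). The 4 genes that rose are annotated as partial copies of the ribosomal protein gene RPL17. In all 4 the GL libraries were low while RL overlapped blue_light and control. LOC100355297, for example, was at 184, 76.8 and 151 CPM in RL, 101, 96.5 and 74.5 CPM in blue_light, 5.19, 9.71 and 4.88 CPM in GL and 80.2, 108 and 82 CPM in control. KRT20 was log2 3.33 ± 0.56 SE higher with an adjusted p of 0.069, and ZBTB10 log2 −1.31 ± 0.21 SE with 0.0622.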

How the data were processed

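RNA sequencing of rabbit cornea was read from a deposited table that gives, per the file headers, estimated counts and FPKM for every gene in each library, both made by the authors. The expected counts were whole numbers, and low ones piled up in steps of 3.75, so they are not raw reads. The submitters' processing notes name GRCm38 and mm10, a mouse build, whereas the table places genes on rabbit RefSeq sequences; the sources used here give neither aligner nor rabbit build. The labels' protocols name an RNeasy kit and a SMARTer mRNA kit. Zero counts carried an FPKM of 0.0001.

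Genes with FPKM of at least 1 in 3 or more of 6 RL and control libraries were tested with edgeR 4.0.16 (R 4.3.3; glmQLFit, glmQLFTest, TMM scaling), with 4 group means over all 12 libraries. Scaling factors lay between 0.951 and 1.05, with a biological coefficient of variation of 0.329. Contrasts were RL minus control and RL minus the mean of blue_light and GL. CPM were scaled by TMM-adjusted library size. The procedure was tested on simulated data with known changes in RL. It called 31.3% of 2-fold, 77.6% of 4-fold and 93.9% of 8-fold changes, with 2 false calls. Most 2-fold changes were thus missed in the simulation. Floors and standard errors cover counting error and the spread between libraries, without molecular identifiers. P-values were Benjamini-Hochberg adjusted over all genes tested, and 0.05 was the threshold.

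Named genes were every call, the 12 higher and 12 lower symbol genes with the smallest unadjusted p and no overlap, up to 4 members of each list by p with the members that state a pathway's level, the TEAD list, and a set of corneal and target genes. LOC copies other than LOC100339782, GPX1, AHCY, KMT2A, and some list members (EGR3, PER2, NPAS2, TGFBI, PTGS2, MIP, LIM2, BFSP1, ABCA1, ABCG1, FADS1, ACACB) and the TEAD1 neighbours were named outside the rule after their values were seen. The genes compared and the 34 lists were chosen with earlier results of these data known, and lists are described without a test; some members are counted in them but not reported here by name. Sterol, TEAD and NF-Y motifs in promoters, part of the plan, were not analysed here. Alternatives were other scaling and filters, DESeq2 1.42.0, limma 3.58.1 on log2(FPKM + 1 or 0.1), counts divided by the step, covariates, fewer libraries and omission of each library. Omission of blue_light and GL libraries, a fit of 7 libraries and list medians of RL minus the other light groups under each alternative were chosen after seeing the data. Gene names came from the deposited table; 20171 of 23890 numeric identifiers were in a RefSeq gene table of another rabbit assembly, 18461 with the same symbol. Of tested genes, 2583 had no symbol other than a LOC number.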

Additional observations from a re-analysis of the deposited data

Results flagged for a closer look

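Genes for which RL differed from the other illuminated groups, by the edgeR test of RL minus the mean of blue_light and GL, numbered 6, and the size of each difference is given here on the log2 scale. TEAD1 had −3.004 (adjusted p = 0.000481), with every RL library below the 9 others. The call was kept in 25 of 25 alternative fits. DIP2C had −1.25 (adjusted p = 0.0224), also with every RL library below the 9 others, and kept its call in 19 of 24 alternative fits.

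Among the RPL17 copies, LOC100355297 had 2.49 (adjusted p = 0.00422) and kept its call in 25 of 25 fits. LOC100339582 had 1.87 (adjusted p = 0.0253; 20 of 25 fits), with 149, 125 and 301 CPM in RL, 118, 144 and 87.5 CPM in blue_light, 20.4, 23.2 and 27.3 CPM in GL and 126, 102 and 156 CPM in control. LOC100354651 had 4.12 (adjusted p = 0.0467; 11 of 25 fits), with 10.9, 2.22 and 5.28 CPM in RL and at most 0.0645 CPM in GL, where the estimate rests on counts under the floor. LOC100339314 had 2.35 (adjusted p = 0.0467; 11 of 25 fits), with 482, 170.02 and 443 CPM in RL and 28.4, 16.2 and 15.8 CPM in GL. For all 4 copies RL overlapped both blue_light and control, and the low group was GL. Such copies can share reads with RPL17, and the part of read assignment in these values was not tested.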

How the results depend on the processing

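The count of genes called in RL against control was 2. It was 1 with FPKM of at least 5, 35 by DESeq2, 4 by limma with a pseudocount of 0.1, 46 with array weights, 5 from 6 libraries alone, 5 with the library set as a covariate and 9 from the 7 libraries with fewer low-count genes. Leaving out single libraries gave 2 to 9 calls, with 9 without control 1 and 4 without RL 1 or without RL 2. In RL against the other light groups the count was 6, and 13 without a filter, 73 by DESeq2 and 9 with the library set as a covariate. By limma it was 10 with a pseudocount of 0.1 and 66 with array weights. Leaving out single libraries gave 2 to 20, with 20 without RL 2, 13 without GL 2, 11 without control 1, 3 without GL 3, and 2 without RL 3, blue_light 1, blue_light 3 or GL 1. The causes were not tested. Scaling, filterByExpr, the step and library size as a covariate kept both counts within 1.5 times. TEAD1 stayed between log2 −3.31 and −2.67.

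Replicate numbers did not pair the libraries: deviations of same-numbered RL and control libraries correlated at 0.346, 0.155 and 0.059, and only replicate 1 matched its own number best in every group. With a replicate block 3 genes were called against control (TEAD1 at log2 −2.96, adjusted p = 0.00186; POLI was the call gained, adjusted p = 0.0252) and 6 against the other light groups. Of the single genes, 52 values over all alternatives moved by more than the spread between replicates, 45 became calls, 1 lost its call and 3451 did neither. None reversed. Of 34 list medians against control, 16 turned sign in at least 1 alternative, and 18 did not; lens, cholesterol and fatty acid synthesis were among the 18. Depth limits genes near the floor of 3 fragments, and 3 libraries per group limit all tests.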
